A study of Mus musculus with 2 samples.

Results

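Meis, Pbx and Pknox genes encode homeodomain transcription factors of the TALE class. The class is named for a 3 amino acid loop extension between the first and second helix of the homeodomain. In the genes described here the inserted residues are proline, tyrosine and proline. PBX proteins bind DNA together with HOX proteins and with MEIS or PKNOX (also called PREP) partners, and MEIS and PKNOX proteins bind PBX through a conserved domain near their amino end. In the embryonic face, PBX genes are known for their role in fusion of the upper lip and primary palate, and Meis2 for its role in the skeleton and connective tissue formed by the cranial neural crest. The genes described here were chosen by symbol: Meis1, Meis2, Meis3, Pbx2, Pbx3, Pbx4, Pknox1 and Pknox2, 8 of the 43346 Ensembl genes in the deposited tables, with 80 annotated transcripts. All 8 were found by gene identifier in both libraries.

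Both samples were pools of facial prominence tissue of the B6NCrl mouse strain taken 10.5 days into development. Replicate 1 pooled 69 embryos and replicate 2 pooled 51, of both sexes, and the labels name no genetic change or treatment. Each library was total RNA-seq from 10 ng of RNA, with a gene total of 40059176 expected counts for replicate 1 and 39531700 for replicate 2. There was 1 group and hence no contrast between conditions: the values describe the level and transcript make-up of the genes and how far the pools differed. Each value is from a whole tissue of mixed cells, in which fewer cells of a type and less RNA per cell cannot be told apart. Levels are in TPM, transcript abundance corrected for length and scaled to the same total in each library.

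The labelled tissue was checked against its markers. All 7 facial mesenchyme markers were detected, meaning at least 1 TPM in both pools, as were 4 of 4 ectoderm, 5 of 5 neuron and ganglion, and 4 of 4 endothelial markers. Neural tube markers were detected in 3 of 5 cases, hindbrain markers in 3 of 4 and heart markers in 0 of 4. The summed level of the hindbrain markers was 14.4 TPM in replicate 1 and 35.6 TPM in replicate 2, that of the neural tube markers 182 and 237 TPM, and that of the heart markers 2.48 and 8.69 TPM. Blood markers were detected in 3 of 3 cases, with the largest sum, 8168 TPM in replicate 1 and 7029 TPM in replicate 2. Macrophage markers were detected in 3 of 3 cases and summed to 25.6 and 20.4 TPM. By scaled counts, 1 of the 3 blood markers and 0 of the 3 macrophage markers were higher in replicate 2. None of these markers was without counts.

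All 8 TALE genes were detected, against 58.2% of named protein coding genes. Every one stood above the 66th percentile of all named protein coding genes, undetected ones included. The 3 Meis genes held the top of the order, followed by Pbx3 and Pknox2, with Pknox1, Pbx2 and Pbx4 at the bottom. The median of the 8 was 29.5 TPM, beside 20.1 TPM for detected protein coding genes. Pknox1 (18.8 TPM), Pbx2 (15.9 TPM) and Pbx4 (14.7 TPM) lay below that median of detected genes. The members summed to 274 TPM in replicate 1 and 300.0 TPM in replicate 2. Meis genes made up 60.3% and 64.0% of that sum, the 3 Pbx genes 22.5% and 20.9%, and the Pknox genes 17.1% and 15.1%. Pbx stood above Pknox per length only: of the summed expected counts, which are not corrected for length, Pbx genes held 17.4% and Pknox genes 21.6%. The Pbx sum also held Pbx4 whole, at 14.37 and 15.01 TPM in replicates 1 and 2. Only 0.7 and 0.91 TPM of that came from transcripts annotated to code for the complete homeodomain. Other TALE genes are not part of these shares.

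**Figure D1:**
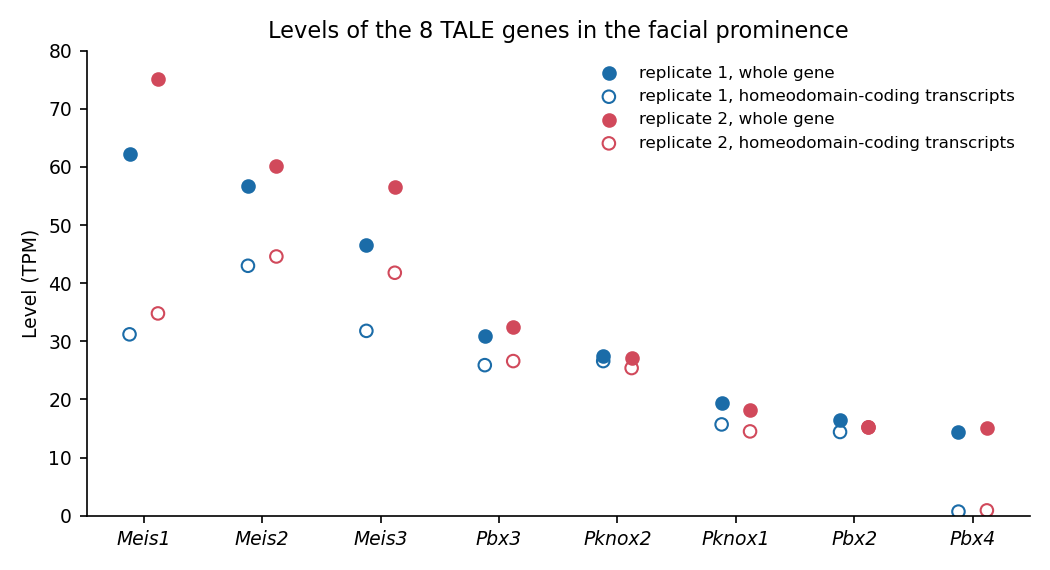
Level of each gene in TPM (vertical axis) in replicate 1 (blue) and replicate 2 (red), ordered by mean level. Filled points are the whole gene and open points the sum over transcripts annotated to code for the complete homeodomain. In replicates 1 and 2, Meis1 has open points at 31.2 and 34.8 TPM and filled points at 62.15 and 75.14. Pbx4 has open points at 0.7 and 0.91 TPM and filled points at 14.37 and 15.01.

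The homeobox, the stretch of coding sequence for the homeodomain, is shown for the most abundant Meis pair and for the highest Pbx and Pknox gene. It shows what these families share and how they differ. Each run is 189 bases, or 63 codons, read 5′ to 3′ on the coding strand from GENCODE M21 transcripts on GRCm38, and capitals mark the 9 bases of the 3 inserted codons (codons 24 to 26). The genomic spans are chr11:18885606-18941724 (minus strand, 3 exons) for Meis1, chr2:115868758-116000196 (minus strand, 3 exons) for Meis2, chr2:34178286-34204911 (minus strand, 2 exons) for Pbx3 and chr9:36894453-36909694 (minus strand, 3 exons) for Pknox2.
Meis1: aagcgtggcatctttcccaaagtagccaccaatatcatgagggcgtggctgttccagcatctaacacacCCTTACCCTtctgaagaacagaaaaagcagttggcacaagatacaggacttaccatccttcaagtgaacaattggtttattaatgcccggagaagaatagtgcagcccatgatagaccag
Meis2: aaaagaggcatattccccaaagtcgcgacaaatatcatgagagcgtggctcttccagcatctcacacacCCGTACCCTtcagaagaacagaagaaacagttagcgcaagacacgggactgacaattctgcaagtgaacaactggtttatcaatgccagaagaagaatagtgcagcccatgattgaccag
Pbx3: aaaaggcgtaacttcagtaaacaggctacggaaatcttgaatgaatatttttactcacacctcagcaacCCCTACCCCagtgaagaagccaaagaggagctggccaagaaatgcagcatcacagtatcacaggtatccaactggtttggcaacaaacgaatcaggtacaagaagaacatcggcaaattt
Pknox2: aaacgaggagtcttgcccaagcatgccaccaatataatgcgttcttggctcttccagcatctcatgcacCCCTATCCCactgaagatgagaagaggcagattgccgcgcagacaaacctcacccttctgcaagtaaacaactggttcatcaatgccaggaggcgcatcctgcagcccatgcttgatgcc

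Meis1 and Meis2 differed at 28 of these 189 bases but encoded the same 63 residues, and Meis3 differed from each of them by 1 residue. Within the Pbx genes the encoded homeodomains were 88.9% to 96.8% identical, with Pbx4 the most divergent, and the Pknox pair was 92.1% identical. Between families, Meis and Pknox homeodomains shared 71.4% to 73.0% of residues, Meis and Pbx 42.9% to 44.4%, and Pbx and Pknox 33.3% to 36.5%. Base identity between members of a family was 76.7% to 85.7%.

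Meis1, a cofactor of HOX proteins known from the hindbrain, eye and blood stem cells (ENSMUSG00000020160, chromosome 11, 18879817 to 19018985, minus strand), was the highest of the 8. It stood at 62.15 TPM in replicate 1 (4368 counts) and 75.14 TPM in replicate 2 (5212 counts), a mean of 68.6 ± 9.19 TPM (SD, n = 2 pools). Meis2 (ENSMUSG00000027210, chromosome 2, 115863064 to 116065839, minus strand) had 56.7 and 60.14 TPM in replicates 1 and 2, a mean of 58.4 ± 2.43. Meis3, the least studied of the Meis genes (ENSMUSG00000041420, chromosome 7, 16175090 to 16186504, plus strand), had 46.66 and 56.48 TPM, a mean of 51.6 ± 6.94. All 3 were higher in replicate 2, and the order Meis1, Meis2, Meis3 was the same in both pools.

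Pbx3, which encodes a PBX protein known for its role in the brainstem and limb (ENSMUSG00000038718, chromosome 2, 34171457 to 34373142, minus strand), had 30.91 TPM in replicate 1 and 32.41 in replicate 2, a mean of 31.7 ± 1.06. Pbx2, a broadly expressed PBX gene (ENSMUSG00000034673, chromosome 17, 34591266 to 34597400, plus strand), had 16.49 and 15.25 TPM, a mean of 15.9 ± 0.877. Pbx4, known mainly from the testis (ENSMUSG00000031860, chromosome 8, 69832491 to 69872292, plus strand), had 14.37 and 15.01 TPM, a mean of 14.7 ± 0.453. Pbx4 rested on far fewer counts than the rest, 232 and 239, against 1064 and 1053 for Pbx2 and 1952 and 2024 for Pbx3.

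Pknox2 (ENSMUSG00000035934, chromosome 9, 36890982 to 37147407, minus strand) had 27.53 TPM in replicate 1 and 27.1 in replicate 2, a mean of 27.3 ± 0.304. Its paralogue Pknox1, a broadly expressed gene needed in the early embryo (ENSMUSG00000006705, chromosome 17, 31564734 to 31607693, plus strand), had 19.46 and 18.11 TPM, a mean of 18.8 ± 0.955. The Pknox genes were the 2 of the 8 that were lower in replicate 2 by scaled counts.

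Some neighbours in this order were separated by more than the spread between replicates and others were not. For each pair the log2 difference of TPM + 0.1 was given a 95% interval. Its SD was borrowed from the 200 genes of closest level, since 2 values a gene give no usable spread of their own. The borrowed log2 SD was 0.0778 for Meis1 and 0.0788 for Meis3. Both differed between the pools more than most genes of their level: by scaled counts, 3 of 200 were as far as Meis1 and 2 as far as Meis3. Intervals of pairs with Meis1 or Meis3 may therefore be too narrow. Of the 7 neighbouring pairs 3 lay beyond the spread. Meis1 exceeded Meis2 1.17-fold (1.02 to 1.35), Meis3 exceeded Pbx3 1.62-fold (1.44 to 1.82) and Pknox2 exceeded Pknox1 1.45-fold (1.21 to 1.74). The intervals of Meis2 over Meis3 (0.988 to 1.31), Pbx3 over Pknox2 (0.992 to 1.35), Pknox1 over Pbx2 (0.99 to 1.41) and Pbx2 over Pbx4 (0.899 to 1.30) held 1. Meis1 over Meis2 was a small difference that lay within the spread in replicate 1 alone (log2 difference 0.13) and when posterior mean TPM was used (0.15).

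Within families, 5 of 7 pairs lay beyond that spread. Pbx3 stood 1.99-fold above Pbx2 (1.71 to 2.32) and 2.15-fold above Pbx4 (1.83 to 2.53). Meis1 exceeded Meis3 1.33-fold (1.20 to 1.48), with the same log2 difference of 0.41 in both pools. These intervals hold replicate spread only, not the error of each gene's length correction. Pairs of 2 values cannot reach a two-sided p below 0.05 by exact permutation, and no such test was made.

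Much of the RNA of some members came from transcripts that are not annotated to code for a homeodomain. For 25 of the 80 transcripts the annotated coding sequence held the complete homeodomain. Their share of the gene was highest for Pknox2 (96.5% in replicate 1 and 93.6% in replicate 2) and Pbx2 (87.2% and 100%). It was 83.8% and 82.2% for Pbx3, 80.8% and 80.1% for Pknox1, and 75.8% and 74.2% for Meis2. The share was 68.2% and 74.0% for Meis3, 50.2% and 46.3% for Meis1, and only 4.84% and 6.09% for Pbx4. Meis1 and Pbx4 thus stood apart from the other 6 in both pools.

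**Figure D2:**
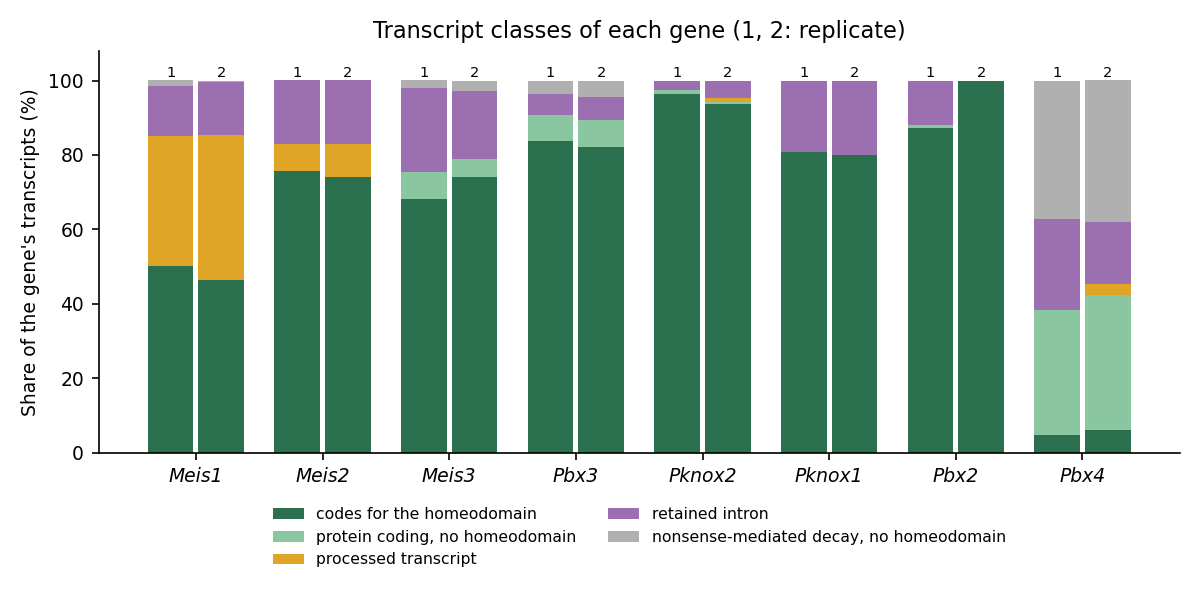
Share of each gene's transcripts (percent, vertical axis) by annotated transcript class, with replicates 1 and 2 side by side for each gene. Dark green includes every transcript whose annotated coding sequence holds the homeodomain, which is 50.2% and 46.3% for Meis1 and 4.84% and 6.09% for Pbx4.

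In Meis1 the noncoding part was mainly 1 transcript. Meis1-201, which encodes a protein of 390 residues, had 27.92 TPM in replicate 1 and 27.95 TPM in replicate 2. Meis1-203, a transcript of 2008 bases and 9 exons annotated as processed and noncoding, had 21.74 TPM in replicate 1 and 29.31 in replicate 2. The coding transcript was level between the pools, and in TPM the larger part of the higher Meis1 value of replicate 2 was assigned to Meis1-203. As a result the leading transcript of Meis1 differed between the pools, with 44.9% for Meis1-201 in replicate 1 and 39.0% for Meis1-203 in replicate 2. By expected counts Meis1-201 led in both pools, with 2291.92 and 2281.5 counts against 1100.16 and 1474.77 for Meis1-203. For the other 7 genes the leading transcript was the same in both pools, while across all 7753 genes with at least 5 TPM and at least 2 transcripts it differed in 6.15%.

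Meis1-203 holds all 189 homeobox bases although it is annotated without a coding sequence. Counting every transcript with the homeobox bases, Meis1 reached 53.0 and 64.1 TPM in replicates 1 and 2, beside 45.1 and 47.4 for Meis2. Counting only those annotated to code for the homeodomain, Meis1 had 31.2 and 34.8 TPM, below Meis2 at 43.0 and 44.6 in both pools. The order of Meis1 and Meis2 therefore depended on how Meis1-203 was counted. Meis3 had 31.8 and 41.8 TPM of homeodomain-coding transcripts, close to Meis1 in replicate 1 and between Meis1 and Meis2 in replicate 2. No interval was computed for these sums.

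In Pbx4 the full-length coding transcript was a minor one. Pbx4-201, which encodes 378 residues and is the sole Pbx4 transcript annotated with a complete homeodomain, had 0.7 TPM in replicate 1 and 0.91 TPM in replicate 2, from 27 and 35.2 counts. The leading transcript was Pbx4-202, a coding model of 375 bases and 3 exons without the homeodomain, with 33.4% of the gene in replicate 1 and 36.2% in replicate 2. Transcripts annotated as targets of nonsense-mediated decay made up 37.2% and 37.9%, led by Pbx4-205 (28.9% and 22.9%), and retained introns 24.6% and 16.7%. The Pbx4 level of 14.7 TPM thus consisted mostly of short or decay-class models, and by homeodomain-coding transcripts Pbx4 was the lowest of the 8, at 0.805 ± 0.148 TPM. By counts, which do not weight short transcripts up, the homeodomain-coding share of Pbx4 was 11.6% and 14.7%.

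Meis2 had 19 annotated transcripts, of which 6 code for the homeodomain, and for 4 of these the difference in share between the pools depended on which of the authors' estimates was read. By the share used above, Meis2-201 had 16.1% of the gene in replicate 1 and 1.62% in replicate 2, and Meis2-206 had 16.9% and 0.23%. Meis2-205 had 4.57% and 21.8%. Meis2-203, the leading transcript of the means, had 17.0% and 27.8%, and Meis2-202 had 13.5% and 20.0%. The authors' bounds on these estimates were wide: Meis2-206 in replicate 2, estimated at 0.14 TPM, had bounds of 0.409 and 12.3 TPM. By posterior means Meis2-206 held 11.87% and 11.67%, and Meis2-205 8.56% and 9.3%. Meis2-201 then had 10.86% in replicate 1 and 13.2% in replicate 2 and Meis2-203 20.08% and 14.27%, both opposite in direction to the first estimate. Meis2-202, with 12.27% and 18.98%, was higher in replicate 2 by both estimates.

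The 6 coding transcripts differ in a segment of 21 bases that lies after the homeobox, in the coding end, and in the coding start. The segment is shown with 30 bases of spliced coding sequence on either side because it separates the forms. It lies at chr2:115867359-115867379 (GRCm38, minus strand) and is the first 21 bases of a coding exon (115867269 to 115867379). The 30 bases before it come from the preceding exon (115868745 to 115868803), which ends the homeobox. Capitals mark the 21 bases present in Meis2-201, Meis2-204 and Meis2-205 and absent in Meis2-202, Meis2-203 and Meis2-206.
Meis2-201: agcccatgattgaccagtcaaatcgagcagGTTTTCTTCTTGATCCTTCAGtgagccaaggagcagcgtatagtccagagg

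Transcripts with this segment summed to 28.4% of Meis2 in replicate 1 and 26.2% in replicate 2, and those without it to 47.4% and 48.0%. The longer carboxyl end, used by Meis2-201 (477 residues) and Meis2-203 (470 residues), summed to 33.1% and 29.4%, and the shorter end (393 to 401 residues) to 42.7% and 44.8%. The coding start shared by 4 of the transcripts held 54.6% and 51.4%. The largest difference of these sums between the pools was 3.73 percentage points, beside 17.2 for a single transcript. By posterior means the largest were 3.47 for the sums and 6.71 for a single transcript, so the contrast was smaller by that estimate. Among homeodomain-coding Meis2 RNA, forms without the segment were the more abundant in both pools, at 62.5% and 64.7%.

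**Figure D3:**
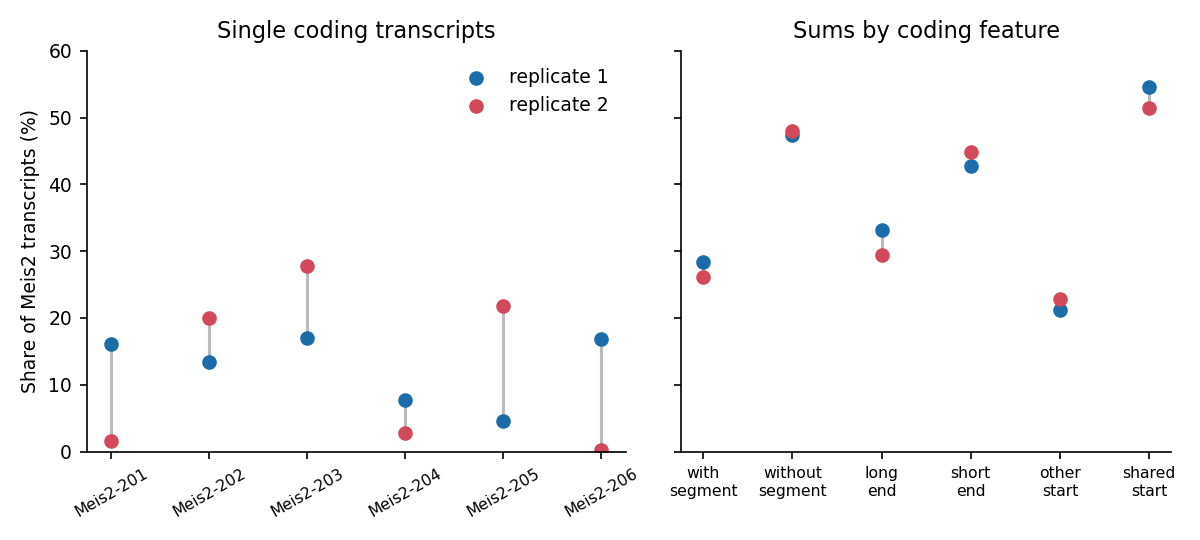
Share of Meis2 transcripts (percent, vertical axis; not the posterior mean) in replicate 1 (blue) and replicate 2 (red) for the 6 homeodomain-coding transcripts (left) and for their sums by the 21-base segment, carboxyl end and coding start (right). Single transcripts such as Meis2-206 (16.9% and 0.23%) lie far apart between the pools and the sums lie close together.

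The shares of the Pbx3 forms differed little between the pools. Pbx3-202, which encodes a product of 351 residues, held 56.6% in replicate 1 and 55.5% in replicate 2. Pbx3-201, which encodes 434 residues with another carboxyl end, held 27.2% and 26.7%. The shorter form was thus the more abundant in both pools, at 17.49 and 17.99 TPM against 8.42 and 8.66 TPM. Both hold the complete homeodomain. They differ by a coding exon of 113 bases after the homeobox, at chr2:34176749-34176861 (GRCm38, minus strand), which is present in Pbx3-201 and skipped in Pbx3-202 and is shown here whole, in lower case, as the sequence that separates the forms.
Pbx3-201 exon: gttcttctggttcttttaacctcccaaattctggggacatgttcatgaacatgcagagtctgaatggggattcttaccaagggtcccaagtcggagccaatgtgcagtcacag

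In the Pknox genes the leading transcripts encode the same protein. Pknox2-202 had 14.3% in replicate 1 and 34.2% in replicate 2, and Pknox2-207 had 14.97% and 0.0%, but with Pknox2-201 they encode 1 product of 474 residues that summed to 96.5% and 93.6% of the gene. Likewise 3 Pknox1 transcripts encode 1 product of 436 residues, which held 80.8% and 80.1%. In Pbx2, Pbx2-201 (430 residues) held 66.2% and 67.6% and Pbx2-203, with a shorter product of 348 residues, 20.99% and 32.44%. In Meis3, Meis3-201 (378 residues) held 52.9% and 55.7% and Meis3-205 (361 residues) 15.2% and 18.3%. After transcripts with the same coding sequence were summed, the leading homeodomain-coding product was the same in both pools for 8 of 8 genes. Pbx4, Pknox1 and Pknox2 each had only 1 such product, so theirs could not differ. Meis1-203, annotated as noncoding, was not among these products. By posterior means the leading Meis2 product did differ, with Meis2-203 in replicate 1 (20.08%) and Meis2-202 in replicate 2 (18.98%).

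Retained introns were a part of most members, in a library made from total RNA. Their share in replicates 1 and 2 was 17.0% and 17.0% for Meis2, 22.7% and 18.3% for Meis3, 19.2% and 19.9% for Pknox1 and 13.4% and 14.3% for Meis1. It was lower for Pbx3 (5.54% and 6.35%) and Pknox2 (2.41% and 4.78%). Pbx2 had 11.9% in replicate 1 and 0.0% in replicate 2, where Pbx2-202 had 29.25 counts in replicate 1 and none in replicate 2, and its posterior mean share was 13.16% and 2.75%.

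Between the pools, Meis1 and Meis3 differed most. After scaling by edgeR's TMM factors, Meis1 was 1.23-fold higher in replicate 2 (log2 ratio 0.29, 95% counting interval 0.24 to 0.35) and Meis3 1.24-fold (0.31, interval 0.22 to 0.40). Among the 200 genes nearest in level, 3 were as far from equal as Meis1 and 2 as far as Meis3. The log2 ratio was 0.09 for Meis2 and 0.09 for Pbx3, and for Pbx4 (0.08), Pbx2 (0.02), Pknox2 (-0.01) and Pknox1 (-0.06) the counting interval held 0. None of the 8 reached a 2-fold difference, a size found for 1.23% of the 14118 genes whose mean count was 50 or more (0.56% higher in replicate 2 and 0.673% higher in replicate 1). This sets 1 library beside another, and no p-value was computed.

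**Figure D4:**
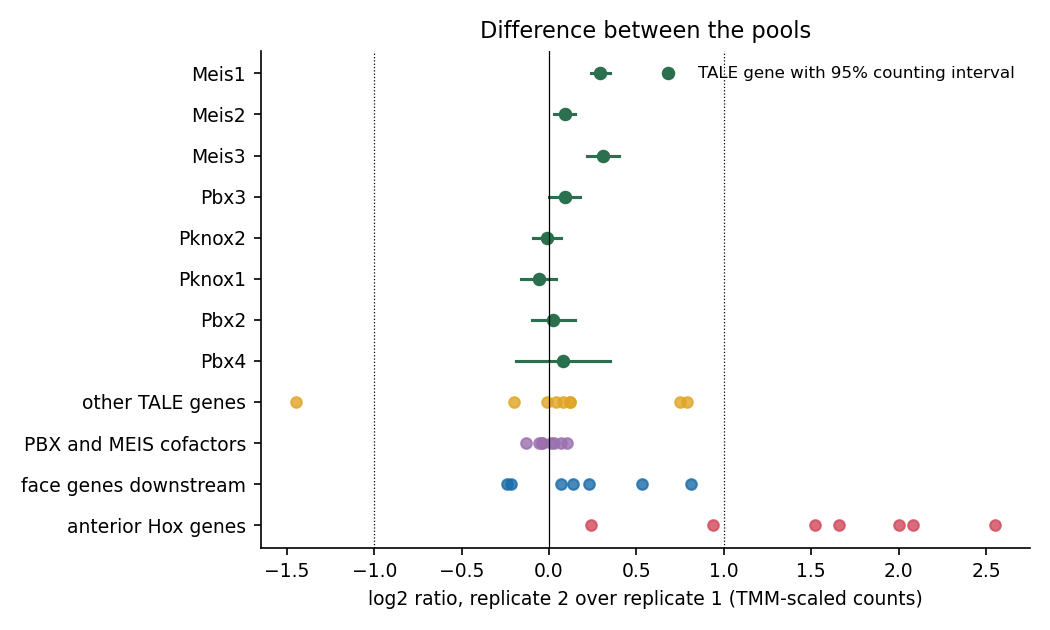
Log2 ratio of replicate 2 over replicate 1 from TMM-scaled counts (horizontal axis) for the 8 genes, with 95% counting intervals, and for the single genes of 4 related lists. Dotted lines mark a 2-fold difference. Meis1 (0.29) and Meis3 (0.31) lie to the right of the other members, and 5 of the anterior Hox genes lie past the 2-fold line.

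The anterior Hox genes, whose products bind DNA with PBX and MEIS, were detected in 4 of 7 cases, beside 58.2% of named protein coding genes. All 7 were higher in replicate 2, with a median log2 ratio of 1.66 beside 0.01 for all genes. Of 6 with enough counts, 5 were at least 2-fold higher in replicate 2, a size found in that direction for 0.56% of genes. Hoxb2 had 4.92 TPM in replicate 1 and 14.21 in replicate 2, Hoxb1 had 1.03 and 5.91, and Hoxd3 had 1.38 and 5.78. Hoxa2, the Hox gene known from the neural crest of the second pharyngeal arch, had 7.73 and 14.58 TPM. The hindbrain and heart marker sums given above were also higher in replicate 2, though 3 of the 4 hindbrain markers are themselves Hox genes of this list. The fourth, Egr2, had 0.76 and 0.94 TPM. Of the 4 heart markers, 3 were higher in replicate 2. All 3 with enough counts were at least 2-fold higher there, beside 0.56% of genes. The remaining heart gene, Nkx2-5, had 0.64 and 0.4 TPM, from 24 and 15 counts. The part of such tissue in the Meis1 and Meis3 values was not tested.

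The cofactor list was level between the pools, as were genes at large. All 8 cofactors were detected, beside 58.2% of named protein coding genes, with a median of 73.2 TPM. Their median log2 ratio was -0.01, beside 0.01 for all genes. They included the histone deacetylase genes Hdac1 (255 ± 1.14 TPM) and Hdac3 (143 ± 3.99), the corepressor gene Ncor1 (118 ± 4.86) and Mybbp1a, whose product binds PKNOX1 (221 ± 1.93). Pbxip1, which encodes a PBX-interacting protein, had 16.75 TPM in replicate 1 and 14.48 in replicate 2. None of the 8 reached 2-fold, a size found for 1.23% of genes with enough counts.

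Of the other TALE genes, 7 of 9 were detected (median 5.87 TPM), beside 58.2% of named protein coding genes. The TGIF repressor genes Tgif1 (93.5 ± 1.91 TPM) and Tgif2 (94.94 and 95.16 TPM) stood above every Meis, Pbx and Pknox gene described here in both pools. The Iroquois genes were led by Irx3 (17.5 ± 0.424). Mkx, a tendon regulator, had 6.42 and 5.31 TPM.

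Genes placed downstream of PBX or MEIS in the face were all detected, 7 of 7, beside 58.2% of named protein coding genes. Their median was 14.8 TPM. None was at 2-fold between the pools, a size found for 1.23% of genes with enough counts. In the ectodermal pathway that PBX genes control during lip fusion, Trp63 had 25.38 and 26.3 TPM in replicates 1 and 2, Wnt9b 4.47 and 3.74, and Wnt3 3.12 and 3.58. Snai1, a regulator of mesenchyme, was the highest at 75.6 ± 3.89 TPM, and the growth factor gene Fgf8 had 36.67 and 31.04. Pax6, an eye and forebrain gene with MEIS-bound enhancers, had 10.99 TPM in replicate 1 and 18.63 in replicate 2, and Hand2 had 3.4 and 4.8. These genes have many other regulators, and their levels say nothing about TALE binding.

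The 8 genes overlap 14 other annotated genes, of which 10 were in the deposited tables. Antisense to Meis1, Gm16141 (chromosome 11, 19013817 to 19015154) had 9.23 TPM in replicate 1 and 10.1 in replicate 2, and Gm16140 had 1.37 and 1.04. Gpsm3, which lies on the same strand as Pbx2 and overlaps its start (chromosome 17, 34589806 to 34591754), had 8.58 and 7.93 TPM. The antisense genes C79798 in Pbx3 and Gm3896 in Pknox2 stayed below 0.5 TPM in both pools. No source used here says if strand was used in counting, so reads in shared exons may be assigned to either gene.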

How the data were processed

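Total RNA-seq was measured in 2 pools of embryonic facial prominence. Expected counts per gene and transcript were deposited by the authors as estimates, not normalized. TPM and FPKM, which the authors scaled over all features, were deposited for genes and transcripts. The authors also gave, in percent, how a gene's abundance divides among its transcripts. Per the notes deposited with the files, quantification used mm10 and GENCODE M4. The aligner and quantifier are not given in the sources used here. Other deposited columns used were the authors' posterior mean estimates and their bounds on TPM, whose level is not stated. Intervals cover counting error or replicate spread only.

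Genes were matched to symbols by identifier, and transcripts to GENCODE M21 (GRCm38, which is the mm10 assembly). By identifier 79 of 80 transcripts matched, and 6 had another length in M21. The 26248 short entries, 96 spike-in controls and the phiX entry were left out of library sizes. Coding sequences were taken from M21 and the homeodomain was located by its 3 inserted residues. Expected counts were rounded and scaled with edgeR 4.0.16 (TMM, prior count of 2), and DESeq2 1.42.0 gave alternative size factors. The edgeR biological coefficient of variation was 0.101 over 17567 genes. On simulated data, the 2-fold call was tested with scaling by total counts, and the pair interval with the same SD for all genes. The transcript and sequence calculations were not tested in this way. By the rule for named genes, all 8 members were named, and detected genes of 4 lists, genes that overlap a member and transcripts at 10% or more in either pool could be. Outside that rule, and after their values were seen, Pbx4-201 and Meis2-204 were named as homeodomain-coding transcripts and Egr2 and Nkx2-5 as markers. From the list of downstream face genes 1 gene is not reported here and was left out of its values. Members and lists were chosen with earlier results of these data known. No comparison between conditions was possible with 1 group.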

Additional observations from a re-analysis of the deposited data

How the results depend on the processing

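All 8 genes stayed detected at 0.5 and at 2 TPM, by at least 10 counts, by posterior means and in each pool alone. The median level of the 8 was 29.5 TPM, 29.9 by posterior means, 32.2 when scaled over genes alone and 18.9 in FPKM, with a range of 29.2 to 29.8 between single pools. With groupings chosen after seeing the data it was 26.1 for homeodomain-coding transcripts and 26.8 for those holding the homeobox bases. Of 10 distinct pairs, 6 lay beyond the spread. Meis1 over Meis2 lost that call by posterior means (0.15) and without replicate 2 (0.13), and Meis2 over Meis3 gained it by posterior means (0.23) and with spread pooled over 1000 genes (0.19). By expected counts, which are not per length, the Pbx share was 17.4% and the Pknox share 21.6%, which reverses their order. The median homeodomain-coding share was 77.7%, 73.9% by posterior means and 99.3% among protein coding transcripts alone. By posterior means the leading transcript of Meis2 also differed between the pools. Genes at 2-fold between the pools numbered 174, 684 with a mean count of at least 10 and 2387 with no minimum. Scaling by spike-ins moved the median of all genes to -0.21. Meis1 (0.08) and Meis3 (0.09) were then still higher in replicate 2 and the other 6 were lower. Each member's distance from the median changed by at most 0.01, which was fixed in advance because a change of scaling moves all genes almost equally. No paired analysis was possible because there was 1 group. Depth limits Pbx4 most, with 27 and 35.2 counts in its full-length transcript.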
